A study of Mus musculus with 18 samples.

Results

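The comparison was between RelA-TA-KI and wild-type (WT) bone marrow-derived macrophages in the opening hour after lipopolysaccharide (LPS), the bacterial cell wall component sensed by TLR4. Its members were 4 of the 18 libraries of the series: RelA-TA-KI cells at 0.5 and 1 h of LPS, and WT cells at the same times, matched by time into 2 pairs. RelA-TA-KI names a knock-in allele of the NF-kB subunit RelA. The labels leave the exact change unstated, and from its title the series is about transactivation by RelA. All cells were labelled C57BL/6, with an age of 12 days, were grown in medium with 30% L929-conditioned medium to day 7, and received LPS at 100 ng/ml. The same 2 genotypes were also sequenced unstimulated, at 3 and 8 h of LPS, and at 0.5, 1, 3 and 8 h of TNF (10 ng/ml), and these libraries serve here as the spread and as points of comparison. Poly(A) RNA was read as single ends of 50 bases and counted per gene.

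NF-kB is held in the cytoplasm by IkB proteins until TLR4 signalling leads to their destruction. RelA-containing dimers then enter the nucleus and switch on cytokines, chemokines and the genes of their own inhibitors, so that the signal is curbed soon after it starts. The transactivation domains of RelA are the parts that recruit the transcription machinery. In parallel TLR4 activates MAP kinases, which drive immediate early genes such as Jun and Fos, and through TRIF it activates IRF3, which drives interferon beta. In macrophages these branches act within the same hour and on overlapping sets of genes.

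The 4 libraries held 5536075 and 4802301 counts in RelA-TA-KI cells (0.5 and 1 h), and 5845970 and 5028561 in WT cells. Fewer genes were detected in RelA-TA-KI cells, with 14644 and 14097, against 15080 and 14595 in WT cells. The RelA-TA-KI library was also the shallower of each pair, and depth was not evened out for this count. Each condition was 1 library per genotype and no separate animals or cultures were named. The p-values below therefore measure only how far pairs of libraries within a phase differed, and genotype cannot be told apart from culture. Rela itself (chromosome 19, 5637483 to 5648130, mm10) stood at 82.5 and 105 CPM (counts scaled to the TMM-adjusted library size) in RelA-TA-KI cells and at 79.4 and 128 CPM in WT cells, with a log2 fold change of -0.12 ± 0.12 (standard error, adjusted p = 0.768, edgeR). Gene counts cannot show an allele whose transcript is retained, and the genotype labels are unchecked by these values. The defining macrophage genes were abundant in all 4 libraries. Csf1r had 867 and 866 CPM in RelA-TA-KI cells against 937 and 940 CPM in WT cells, and Adgre1 had 720 and 703 CPM against 656 and 657 CPM.

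Early after LPS, RelA-TA-KI cells had lower levels of 8 of 18 inflammatory cytokines, 3 of 17 chemokines and 7 of 23 other LPS effector genes. They had higher levels of 7 of 30 immediate early genes, 8 of 26 interferon genes, and 7 of 16 cholesterol, 7 of 14 fatty acid and 9 of 19 glycolysis and hypoxia genes. Of 11621 genes tested, 410 (3.53%) passed an adjusted p of 0.05 in edgeR's quasi-likelihood test over both pairs, 203 lower (1.75%) and 207 higher (1.78%) in RelA-TA-KI cells. The lower genes had the larger changes. Their median log2 fold change was -1.50, and 148 of the 203 had at least a 2-fold difference. The higher genes had a median of 0.69, and 60 of the 207 differed at least 2-fold. The median over all genes tested was -0.00, with quartiles at -0.16 and 0.14.

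**Figure D1:**
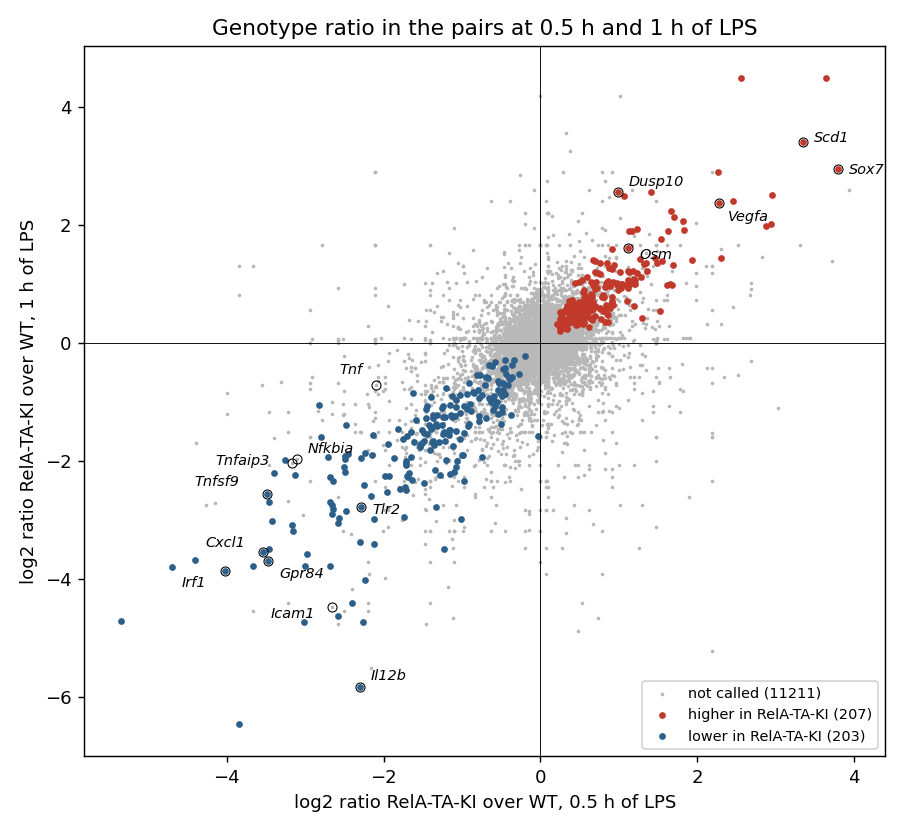
Log2 ratio of RelA-TA-KI over WT CPM in the pair at 0.5 h of LPS (x axis) and in the pair at 1 h (y axis), 1 point per gene tested; red and blue points passed the adjusted p of 0.05 in the higher or lower direction and grey points did not. Called genes lie on the same side of 0 in both pairs, Tnf lies closer to 0 at 1 h than at 0.5 h, and Nfkbia, Tnfaip3, Icam1 and Tnf are ringed grey points with large ratios.

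The pairs contributed unequally to these counts. Without the 0.5 h pair 117 genes were called, and without the 1 h pair 50. Of the 60 genes called here and given by name under the naming rule, 34 stayed called without the 0.5 h pair and 16 without the 1 h pair. All of the 16 were also among the 34: Cxcl1, Cxcl10, Tnfsf9, Gem, Gpr84, Tlr2, Marcksl1 and Marco on the lower side, and Scd1, Scd2, Fads2, Vegfa, Jun, Rgs2, Emp2 and Ighm on the higher side.

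Calls were also counted by the response to LPS, as a description. Averaged over both genotypes, 293 genes (2.52%) passed the test of the early response and stood at least 2-fold above unstimulated cells at 0.5 or 1 h. Among these, 67 (22.9%) were lower and 31 (10.6%) were higher in RelA-TA-KI cells, with a median log2 fold change of -0.17. The averaged response came from the same libraries, so a gene could count as induced through 1 genotype alone. Gpr84 was counted, at 1.97 CPM unstimulated and 1.95 and 2.74 CPM after LPS in RelA-TA-KI cells. The shares of induced genes called are therefore not independent of the genotype difference. Of the 84 genes that fell at least 2-fold early after LPS, 1 was lower and 1 higher. Of the 11244 remaining genes, 135 were lower and 175 higher. The called genes also differed in where they stood before LPS. The 67 lower induced genes had a median log2 ratio of RelA-TA-KI over WT of -0.13 in unstimulated cells, while the other 136 lower genes had -1.21. The 31 higher induced genes had 0.25 unstimulated and the other 176 higher genes 0.45. The unstimulated pair is 1 library per genotype, so these ratios are a description. Some induced genes were hardly counted before LPS, as Mir155hg with 0 CPM in both genotypes. The ratios carry a prior count of 0.5, which draws such genes towards no difference. The median of -0.13 therefore does not show equal levels before LPS.

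Cxcl1, the chemokine that draws neutrophils through CXCR2, stood at 14.4 and 26.6 CPM in RelA-TA-KI cells at 0.5 and 1 h, against 168 and 313 CPM in WT cells. Both RelA-TA-KI libraries were below both WT libraries, as was the case in either direction for 39.6% of all genes tested. The log2 fold change was -3.55 ± 0.19 (adjusted p = 7.93e-06, edgeR). The interferon-inducible T-cell attractant Cxcl10 reached 13.1 and 157 CPM in RelA-TA-KI cells and 146 and 1023 CPM in WT cells (log2 fold change -3.02 ± 0.23, adjusted p = 0.00259, edgeR). Its groups overlapped, since the RelA-TA-KI library at 1 h was slightly above the WT library at 0.5 h. Its exons overlap those of Art3, whose reads cannot be told apart where counting ignored strand. Cxcl3, a close relative of Cxcl1, had 0.324 and 0.783 CPM against 1.96 and 9.02 CPM, on 2 and 4 counts in RelA-TA-KI cells. In all 3 of 17 chemokines tested were lower and none was higher, with a list median of -1.05, and the same count was 3 without the 0.5 h pair and 2 without the 1 h pair.

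Several abundant chemokines were not called, and the chemokine list median of -1.05 moved with the filter and the pairs. It was -0.33 with a filter of 1 CPM in 9 libraries and -0.61 with no filter on low counts. Without the 0.5 h pair the median was -1.22, and without the 1 h pair -0.00. The CC chemokines Ccl2, Ccl3, Ccl4 and Ccl7, which attract monocytes and lymphocytes, passed the test in neither direction. Ccl2 had 1126 and 2241 CPM in RelA-TA-KI cells and 1101 and 2486 CPM in WT cells. Ccl3 had 561 and 1181 CPM in RelA-TA-KI cells against 512 and 1123 CPM in WT cells, and Ccl7 had 964 and 2008 CPM against 686 and 1452 CPM. The log2 fold changes of these 4 ran from -0.06 for Ccl2 to 0.48 for Ccl7. Cxcl2 was also not called (log2 fold change -1.30 ± 0.37, adjusted p = 0.186, edgeR), at 307 and 476 CPM in RelA-TA-KI cells and 801 and 1106 CPM in WT cells. Unstimulated levels of Ccl2 were 391 CPM in RelA-TA-KI cells and 383 CPM in WT cells, and those of Ccl3 were 132 CPM in RelA-TA-KI cells and 119 CPM in WT cells, so both genes climbed in both genotypes.

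The promoters of some of these genes hold matches to the NF-kB consensus known as the kB motif. They are printed for 3 lower genes, 1 inhibitor gene that was not called and 1 higher gene. Only promoters with a match were printed, so these lines do not show how common the motif is. Each line gives the 200 bases before the RefSeq start (GRCm38.p6), read 5′ to 3′ on the gene's strand, with the motif in capitals. Cxcl1 (chr5:90891045-90891244, plus strand), Cxcl10 (chr5:92348890-92349089, minus strand) and Irf1 (chr11:53769814-53770013, plus strand) were lower in RelA-TA-KI cells. Nfkbia (chr12:55492648-55492847, minus strand) encodes IkB alpha and was not called, and Vegfa (chr17:46032378-46032577, minus strand) was higher.
Cxcl1: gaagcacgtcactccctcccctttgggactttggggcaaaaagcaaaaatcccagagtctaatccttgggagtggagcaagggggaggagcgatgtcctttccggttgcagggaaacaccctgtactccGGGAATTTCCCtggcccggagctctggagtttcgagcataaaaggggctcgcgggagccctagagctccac
Cxcl10: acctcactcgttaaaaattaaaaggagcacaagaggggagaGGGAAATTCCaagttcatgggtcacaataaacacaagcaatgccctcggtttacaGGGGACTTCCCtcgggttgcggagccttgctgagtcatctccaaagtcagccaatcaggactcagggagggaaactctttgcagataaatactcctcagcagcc
Irf1: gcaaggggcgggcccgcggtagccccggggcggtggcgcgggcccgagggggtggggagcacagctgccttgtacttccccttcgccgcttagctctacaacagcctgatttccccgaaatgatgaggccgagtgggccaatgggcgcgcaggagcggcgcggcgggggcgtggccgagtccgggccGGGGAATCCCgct
Nfkbia: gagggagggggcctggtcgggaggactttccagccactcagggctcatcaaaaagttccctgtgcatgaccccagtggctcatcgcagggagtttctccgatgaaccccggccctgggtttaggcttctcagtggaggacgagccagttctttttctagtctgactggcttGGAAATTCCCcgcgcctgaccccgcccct
Vegfa: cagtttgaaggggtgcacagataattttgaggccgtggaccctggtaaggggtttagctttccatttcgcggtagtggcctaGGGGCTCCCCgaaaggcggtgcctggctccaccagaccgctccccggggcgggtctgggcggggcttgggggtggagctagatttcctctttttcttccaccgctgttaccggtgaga
The match in Cxcl1 starts 71 bases upstream of the start and overlaps a further match a base later. Cxcl10 has matches 159 and 104 bases upstream, the nearer one again with an overlapping match. The match in Irf1 starts 13 bases upstream, in Nfkbia 29 and in Vegfa 118.

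Motif matches were then counted across genes, without a test. Windows of 300 bases, 250 before and 50 after the start, were searched on both strands, with some genes having several windows. A match stood in 37 of 198 windows of the lower genes (18.7%) and in 22 of 216 windows of the higher genes (10.2%), against 1222 of 11638 windows of all genes tested (10.5%) and 2779 of 32851 windows in the whole table (8.46%). For the genes that were both lower and early induced it was 18 of 73 windows (24.7%). It was 4 of 28 (14.3%) for genes higher and early induced, and 30 of 196 (15.3%) for induced genes not called in either direction. The 12 named lower genes had it in 3 of 10 windows and the 12 named higher genes in 3 of 8. For the feedback inhibitors of NF-kB it was 8 of 13 windows (61.5%). The AP-1 motif TGANTCA stood in 13 windows of the lower genes (6.57%) and 20 of the higher genes (9.26%), against 5.20% for all genes tested. Among early induced genes it stood in 7 of 28 windows of higher genes and 7 of 73 of lower genes (9.59%). All early induced genes had it in 10.8% of windows. The CRE motif TGACGTCA stood in 5 (2.53%), 7 (3.24%) and 3.07%, counting lower genes, higher genes and all genes tested. Symbols matched for 151 of the 203 lower, 162 of the 207 higher and 9107 of the 11621 tested genes. A match describes the letters in a window and does not show a site bound by a factor.

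Cytokines were the list with the lowest median, -1.84 on the log2 scale, with 8 of 18 members lower and 1 higher in RelA-TA-KI cells. Il1b, the inflammasome-dependent pyrogenic cytokine, had 17.8 and 41.9 CPM in RelA-TA-KI cells against 159 and 383 CPM in WT cells, without overlap of the groups (log2 fold change -3.18 ± 0.26, adjusted p = 0.00129, edgeR). Tnfsf9, the 4-1BB ligand that co-stimulates T cells, had 35.8 and 128 CPM in RelA-TA-KI cells and 404 and 749 CPM in WT cells. Its log2 fold change was -2.97 ± 0.29 (adjusted p = 0.00484, edgeR).

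Il12b, the shared subunit of IL-12 and IL-23, was at 0.324 and 0.978 CPM in RelA-TA-KI cells and at 1.96 and 61.1 CPM in WT cells. It rested on 2 and 5 counts against 13 and 332. The log2 ratio was -2.31 at 0.5 h and -5.84 at 1 h, and the few counts at 0.5 h limit how far these can be compared. The growth factor gene Csf2 had 0 counts in both RelA-TA-KI libraries, against 8 and 43 counts in WT libraries, which made it at least 15.9-fold lower (against a floor of 3 counts over the group; floors and intervals cover counting error only). Il23a, the partner of Il12b in IL-23, had 2 counts against 35 over both times, and WT cells held 16.4 times its level in RelA-TA-KI cells (95% counting interval 4.20 to 140.4). Il6 had 0 and 3 counts against 3 and 30. Il1a and Lif completed the lower members. Counts of Csf2, Il23a and Il6 were low in WT cells too at these times.

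Osm, a cytokine of the IL-6 type, went the other way, at 170.1 and 150.5 CPM in RelA-TA-KI cells and 77.997 and 49.3 CPM in WT cells (log2 fold change 1.35 ± 0.13, adjusted p = 0.000248, edgeR). Tnf was not called. It had 575 and 1835 CPM in RelA-TA-KI cells and 2459 and 3005 CPM in WT cells, and its log2 ratio was -2.10 at 0.5 h and -0.71 at 1 h (adjusted p = 0.563, edgeR). The count of lower cytokines was 3 without the 0.5 h pair and 1 without the 1 h pair, with 1 higher member in each case.

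**Figure D2:**
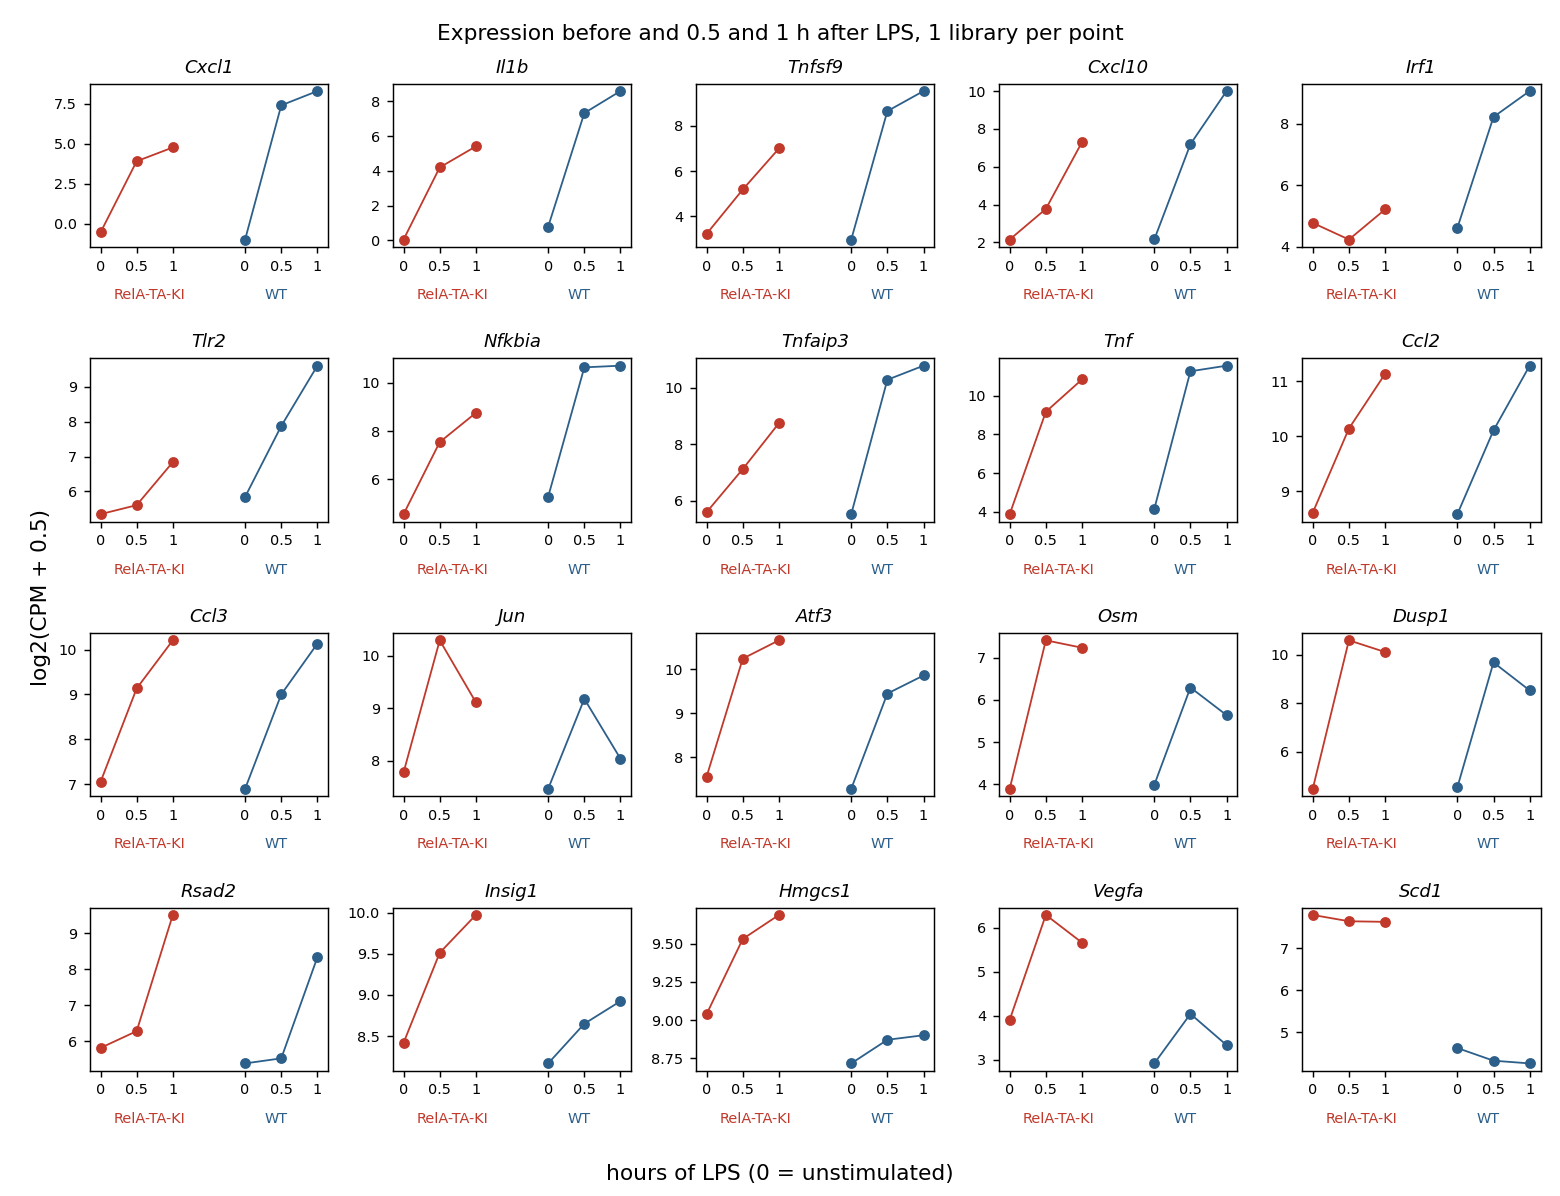
Expression as log2(CPM + 0.5) of 20 genes in unstimulated cells and at 0.5 and 1 h of LPS, RelA-TA-KI on the left of each panel (red) and WT on the right (blue), 1 library per point and each panel with its own axis. Cxcl1, Il1b, Tnfsf9, Tlr2 and Irf1 stay lower in RelA-TA-KI cells at both times, Ccl2 and Ccl3 follow similar courses in both genotypes, and Jun, Osm, Vegfa and Scd1 stand higher in RelA-TA-KI cells.

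The feedback inhibitors of NF-kB had large ratios that the test did not call. Nfkbia encodes IkB alpha, the inhibitor resynthesised soon after activation (chromosome 12, 55489411 to 55492647). It had 186 and 431 CPM in RelA-TA-KI cells and 1598 and 1677 CPM in WT cells, and the groups did not overlap (log2 fold change -2.53 ± 0.60, adjusted p = 0.147, edgeR). Tnfaip3, the ubiquitin-editing enzyme A20, had 139 and 429.7 CPM in RelA-TA-KI cells and 1251 and 1768 CPM in WT cells (log2 fold change -2.60 ± 0.51, adjusted p = 0.0961, edgeR). For both the ratio at 0.5 h (-3.10 and -3.17) was larger than at 1 h (-1.96 and -2.04). Nfkbiz, the nuclear IkB zeta, had 342 and 602 CPM in RelA-TA-KI cells and 996 and 1922 CPM in WT cells (adjusted p = 0.0583, edgeR). Nfkbie, which encodes IkB epsilon, hardly left its unstimulated level in RelA-TA-KI cells, at 4.70 and 6.85 CPM against 25.3 and 126 CPM in WT cells, with 4.84 CPM in unstimulated RelA-TA-KI cells and 6.80 CPM in unstimulated WT cells.

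None of the 11 inhibitors was called by edgeR, although 9 were below WT in both pairs and their median log2 fold change was -1.32. Of all 11621 genes tested, 3616 were below WT in both pairs and 3609 above. With DESeq2 5 of the 11 were called lower, with limma-voom also 5, and with edgeR on the 4 early LPS libraries alone 3. Over all genes tested, the lower calls were 155 of 11621 with DESeq2 and 210 of 11621 with limma-voom. On the 4 early LPS libraries alone they were 539 of 11583. These totals are also the base for the DESeq2 and limma-voom counts of the lists that follow. The other NF-kB subunit genes were not called either. Relb had 8.92 and 14.7 CPM in RelA-TA-KI cells against 16.1 and 62.7 CPM in WT cells, and Rel, which encodes c-Rel, had 67.9 and 148 CPM against 105 and 355 CPM. Of 5 subunit genes 0 were called by edgeR, 3 lower by DESeq2 and 2 lower by limma-voom.

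Of 23 other LPS-induced effector genes tested, 7 were lower and none was higher, with a median of -1.33, and the count of lower genes was 5 without the 0.5 h pair and 3 without the 1 h pair. Gpr84, a receptor for medium-chain fatty acids, had 1.95 and 2.74 CPM in RelA-TA-KI cells and 22.5 and 36.8 CPM in WT cells (log2 fold change -3.64 ± 0.28, adjusted p = 6.08e-05, edgeR). Its RelA-TA-KI values were close to the 1.97 CPM of unstimulated RelA-TA-KI cells. Marcksl1, a regulator of the actin cytoskeleton, had 43.6 and 108 CPM in RelA-TA-KI cells and 208 and 572 CPM in WT cells (log2 fold change -2.34 ± 0.10, adjusted p = 1.21e-06, edgeR). Saa3, an acute-phase protein of macrophages, had 0 and 2 counts against 15 and 36 counts, and its level in WT cells was 23.8 times that in RelA-TA-KI cells (95% counting interval 6.27 to 202.2). Clec4e, Ptgs2 (cyclooxygenase 2) and Slc7a11 were also called.

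Icam1, Socs3, Acod1 and Cd40 had large ratios and did not pass. Icam1, the adhesion molecule that binds leukocyte integrins, had 24.8 and 26.8 CPM in RelA-TA-KI cells and 156 and 599 CPM in WT cells (log2 fold change -3.58 ± 0.70, adjusted p = 0.0928, edgeR). Socs3, which restrains cytokine receptor signalling, had 16.9 and 78.7 CPM against 301 and 518 CPM (adjusted p = 0.122, edgeR). Among survival and adhesion genes 2 of 20 were lower, Sod2 and Cflar, with 1 of them called without the 0.5 h pair, 0 without the 1 h pair, and 6 called lower by DESeq2.

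Of 28 genes of TLR4 and TNF receptor signalling 1 was lower and 1 higher, with a list median of -0.05. The lower member was Tlr2, the receptor for bacterial lipoproteins, with 48.2 and 114 CPM in RelA-TA-KI cells and 235 and 781 CPM in WT cells (log2 fold change -2.54 ± 0.15, adjusted p = 7.93e-06, edgeR). Ticam1, the TRIF adaptor, was higher, at 54.8 and 138 CPM against 37.7 and 76.2 CPM (log2 fold change 0.72 ± 0.11, adjusted p = 0.00541, edgeR), and was not called without the 1 h pair. Tlr4 itself had 205 and 255 CPM in RelA-TA-KI cells and 168 and 153 CPM in WT cells, and its co-receptor Cd14 had 393 and 554 CPM against 367 and 629.8 CPM; neither was called (adjusted p = 0.125 and 0.924, edgeR).

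Among immediate early genes more members were higher than lower. Of 30 tested, 7 were higher and 2 lower, with a median of 0.35. Jun, a core AP-1 subunit, had 1254 and 553 CPM in RelA-TA-KI cells and 579 and 263 CPM in WT cells (log2 fold change 1.09 ± 0.12, adjusted p = 0.00046, edgeR). It peaked at 0.5 h in both genotypes, and at each time the RelA-TA-KI library was the higher of its pair. Its exons overlap those of the antisense gene Junos. The stress-responsive repressor Atf3 had 1214 and 1619.5 CPM in RelA-TA-KI cells against 700.0 and 931 CPM in WT cells (log2 fold change 0.80 ± 0.08, adjusted p = 0.000248, edgeR).

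Arc, Fosb, Jund, Ier5 and Klf6 were the other higher members, with log2 fold changes of 2.89, 0.88, 0.82, 0.60 and 0.30. Arc rested on 52 and 10 counts in RelA-TA-KI cells and 9 and 0 in WT cells. The lower members were Maff and Egr2. Maff is a small Maf factor and had 26.1 and 64.6 CPM in RelA-TA-KI cells and 57.2 and 120.2 CPM in WT cells (log2 fold change -0.998 ± 0.18, adjusted p = 0.0139, edgeR). Egr1, a zinc finger factor induced within minutes, had 1501 and 92.8 CPM in RelA-TA-KI cells and 769.6 and 68.1 CPM in WT cells and was not called (adjusted p = 0.458, edgeR), nor was Fos, at 809 and 50.3 CPM against 302 and 41.6 CPM. The count of higher members was 2 without the 0.5 h pair and 4 without the 1 h pair, and that of lower members 1 and 0.

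Dusp1, the phosphatase that switches off MAP kinases, was higher, with 1549.7 and 1108 CPM in RelA-TA-KI cells and 822 and 368 CPM in WT cells (log2 fold change 1.25 ± 0.21, adjusted p = 0.0212, edgeR). Dusp10, which acts on JNK and p38, was higher too, at 5.19 and 22.3 CPM against 2.56 and 3.68 CPM (log2 fold change 1.98 ± 0.43). They were the 2 called among 13 DUSP and Sprouty genes, whose median was 0.08 (-0.02 without the 1 h pair); both were called without the 0.5 h pair and neither without the 1 h pair. Dusp1 stood lower at 1 h than at 0.5 h in both genotypes. Among 10 regulators of mRNA decay, Zc3h12c (Regnase-3) was lower and Tob2 higher, and Zfp36 (tristetraprolin) had 1119 and 453 CPM in RelA-TA-KI cells against 1052 and 444 CPM in WT cells.

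Among interferon genes the regulator Irf1 was lower and several interferon-stimulated genes were higher. Irf1 (chromosome 11, 53770014 to 53778374) had 18.3 and 36.6 CPM in RelA-TA-KI cells and 298 and 536 CPM in WT cells, the largest drop among genes with over 100 counts in every library of the 4 (log2 fold change -3.94 ± 0.53, adjusted p = 0.031, edgeR). Unstimulated cells had 26.9 CPM in RelA-TA-KI cells and 24.0 CPM in WT cells, so the RelA-TA-KI library at 0.5 h was below the unstimulated one. It lost its call without either pair. Of 26 interferon genes 8 were higher and Irf1 alone was lower, with a median of 0.57. Rsad2 (viperin) had 77.2 and 724 CPM in RelA-TA-KI cells and 45.6 and 321 CPM in WT cells (log2 fold change 0.98 ± 0.14, adjusted p = 0.0209, edgeR). Oasl1, an antiviral OAS-like gene, had 6.16 and 56.2 CPM in RelA-TA-KI cells against 2.56 and 14.5 CPM in WT cells (log2 fold change 1.77 ± 0.28, adjusted p = 0.0135, edgeR), and its exons overlap those of Gm13822.

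Ifit3, Mx1, Usp18, Oasl2, Irf7 and Ifi204 were the other higher members. Ifnb1, interferon beta itself, appeared at 1 h, with 0.973 and 137 CPM in RelA-TA-KI cells and 0.302 and 93.1 CPM in WT cells, and was not called (log2 fold change 0.58 ± 0.46, adjusted p = 0.714, edgeR). Some of the higher members already stood higher before LPS, as Oasl1 did with 5.20 CPM in RelA-TA-KI cells and 1.73 CPM in WT cells. Gbp5, a guanylate-binding protein of the same list, had 3.89 and 8.22 CPM in RelA-TA-KI cells and 8.90 and 147 CPM in WT cells and was not called (adjusted p = 0.322, edgeR). The count of higher members was 3 without the 0.5 h pair, 0 without the 1 h pair and 1 where all other pairs shared 1 genotype effect.

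All called members of the metabolic lists were higher in RelA-TA-KI cells. In cholesterol synthesis 7 of 16 genes were higher and none was lower, with a median of 0.45. In both pairs 15 of 16 stood above WT, as did 3609 of all 11621 genes tested. Insig1, the sterol-sensing brake on SREBP, had 730.4 and 1005 CPM in RelA-TA-KI cells and 401 and 485 CPM in WT cells (log2 fold change 0.96 ± 0.13, adjusted p = 0.00348, edgeR). Hmgcs1, the HMG-CoA synthase, had 739 and 825 CPM in RelA-TA-KI cells against 468 and 477 CPM in WT cells. Without the 0.5 h pair 1 member was called and without the 1 h pair 0.

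Among fatty acid and LXR genes 7 of 14 were higher and none lower, with a median of 0.48. The count was 4 without the 0.5 h pair and 4 without the 1 h pair. Scd1, the stearoyl-CoA desaturase (chromosome 19, 44394451 to 44407709), had 199.6 and 198 CPM in RelA-TA-KI cells and 19.5 and 18.6 CPM in WT cells (log2 fold change 3.38 ± 0.17, adjusted p = 7.93e-06, edgeR). Its neighbour Scd2 had 3556 and 3394 CPM in RelA-TA-KI cells and 1427 and 1341 CPM in WT cells. Both already differed before LPS, at 222 and 3793 CPM in RelA-TA-KI cells and 24.1 and 1646 CPM in WT cells, and changed little within the hour. Fads2, a polyunsaturated fatty acid desaturase, and Abcg1, a cholesterol exporter, were higher as well (log2 fold changes 1.21 ± 0.10 and 1.11 ± 0.12).

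Glycolysis and hypoxia genes had 9 of 19 higher and none lower, with a median of 0.35. Vegfa, the angiogenic growth factor, had 78.2 and 50.3 CPM in RelA-TA-KI cells and 16.0 and 9.57 CPM in WT cells (log2 fold change 2.33 ± 0.14, adjusted p = 7.93e-06, edgeR), and unstimulated cells had 14.5 CPM in RelA-TA-KI cells and 7.05 CPM in WT cells. Egln3, an oxygen-sensing prolyl hydroxylase, had 21.6 and 11.9 CPM in RelA-TA-KI cells against 5.58 and 4.42 CPM in WT cells. The lactate exporter Slc16a3, the mitophagy gene Bnip3 and the glycolytic genes Aldoa, Ldha, Pgk1 and Pfkl were also higher, with the glucose transporter Slc2a1. Hif1a was not called (log2 fold change -0.15). Glycolytic genes have near-identical pseudogene copies, and Gapdh was counted at only 2.59 and 2.15 CPM in RelA-TA-KI cells and 2.87 and 3.13 CPM in WT cells, so values of this list are uncertain where copies share reads. The count was 2 without the 0.5 h pair and 1, Vegfa, without the 1 h pair.

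**Figure D3:**
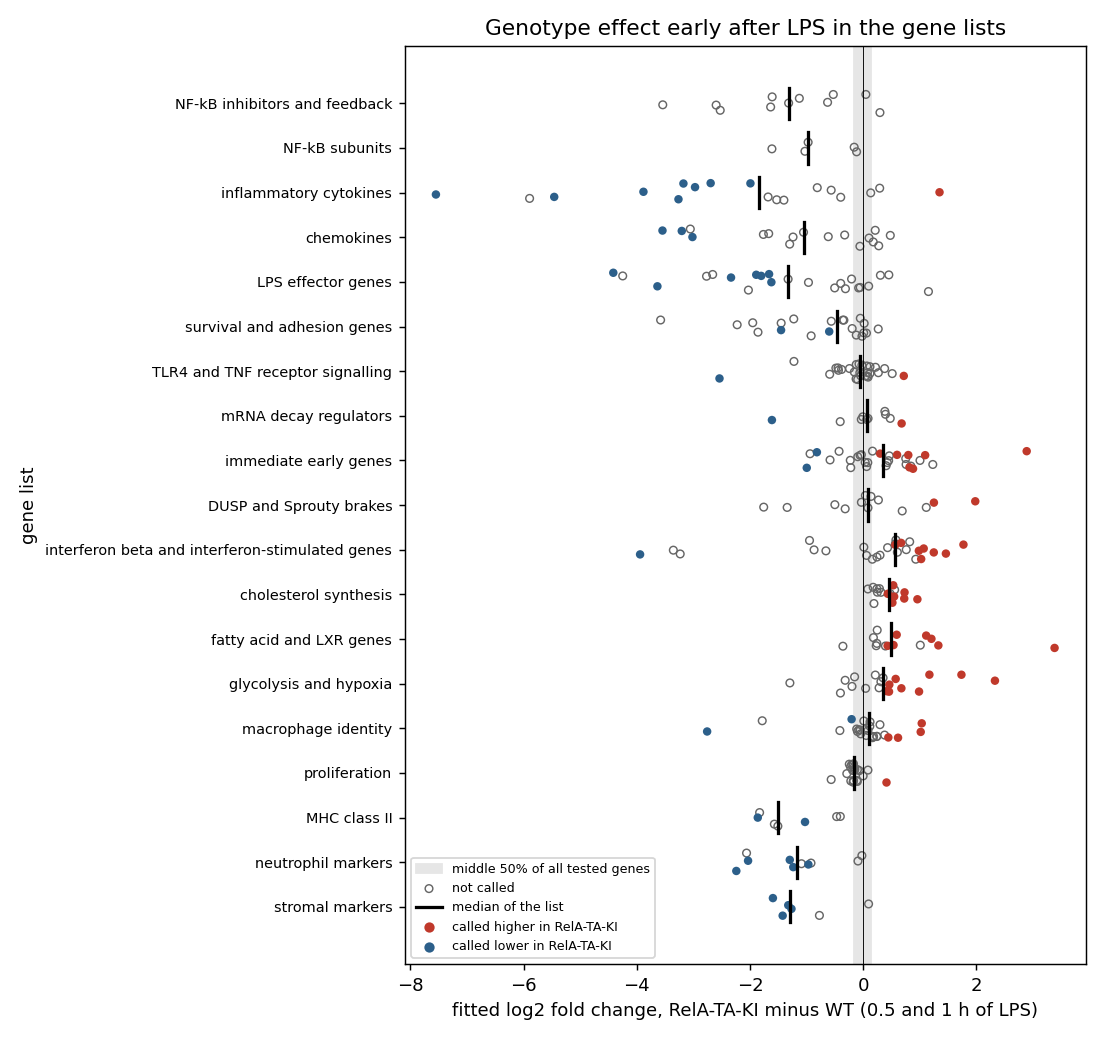
Fitted log2 fold change of RelA-TA-KI minus WT over 0.5 and 1 h of LPS (x axis) for the members of 19 gene lists (rows), with filled points for called genes, open points for others, a black bar at each list's median and grey shading over the middle 50% of all genes tested. Medians left of 0 include those of cytokines (-1.84), MHC class II genes (-1.51), effector genes (-1.33), feedback inhibitors (-1.32), stromal markers (-1.30) and neutrophil markers (-1.16). Those of interferon (0.57), fatty acid (0.48) and cholesterol genes (0.45) lie right of it.

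Of 26 macrophage identity genes 2 were lower and 4 higher, with a median of 0.10. Marco, a scavenger receptor, had 2.76 and 3.72 CPM in RelA-TA-KI cells and 17.7 and 26.7 CPM in WT cells (log2 fold change -2.76 ± 0.27, adjusted p = 0.000248, edgeR), and it had 2.51 CPM in unstimulated RelA-TA-KI cells and 25.7 CPM in unstimulated WT cells. The high-affinity IgG receptor Fcgr1 had 88.9 and 82.0 CPM in RelA-TA-KI cells against 43.6 and 40.8 CPM in WT cells. Of 7 MHC class II genes 2 were lower, H2-Eb1 and H2-Ab1, with a median of -1.51. All 7 were below WT in both pairs, as were 3616 of the 11621 genes tested. H2-Eb1 had 9.24 and 8.81 CPM in RelA-TA-KI cells and 30.6 and 35.7 CPM in WT cells. Without the 0.5 h pair 1 class II gene was called and without the 1 h pair 0.

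Markers of other cells moved with genotype in some lists. Neutrophil markers summed to 218 and 276 CPM in RelA-TA-KI cells and 364 and 469 CPM in WT cells, with 5 of 10 tested called lower, among them Mpo, S100a8 and S100a9. The fall was not shared by all members. Mmp8, the marker with the most counts, was not called, at 685 and 572 counts in RelA-TA-KI cells against 731 and 634 in WT cells. Retnlg had 6 and 8 counts against 6 and 10. Ly6g, a defining marker, had 1 to 5 counts in each of the 4 libraries. Stromal markers summed to 111 and 85.9 CPM in RelA-TA-KI cells and 269 and 245 CPM in WT cells, with 4 of 6 tested lower. Col1a2 had 26.4 and 20.4 CPM against 70.5 and 71.6 CPM, while Col3a1 and Dcn had at most 7 counts and Lum 0. In bulk RNA fewer cells of a type and less RNA per cell cannot be told apart. The share of these cells in the lower calls, such as the basement membrane gene Col4a1 (1.46 and 0.391 CPM against 7.24 and 7.73 CPM, exons shared with Col4a2), was not tested. The neutrophil list had 1 lower call without the 0.5 h pair and 1 without the 1 h pair, and the stromal list had 2 and 0.

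Dendritic cell markers summed to 12.0 and 12.3 CPM in RelA-TA-KI cells and 17.8 and 16.4 CPM in WT cells, and Cd209a, the 1 lower member of 5 tested, rested on 3 and 1 counts against 30 and 21. Lymphocyte markers summed to 99.7 and 121 CPM in RelA-TA-KI cells and 70.3 and 79.3 CPM in WT cells, and 1 of 2 tested was higher, Il7r, at 97.1 and 119 CPM against 67.1 and 75.4 CPM, while Cd3e and Cd3g were at 0 in all 4 libraries. Ighm, the immunoglobulin mu constant region, was higher too, with 52.5 and 53.0 CPM in RelA-TA-KI cells and 9.50 and 9.94 CPM in WT cells, although the B-cell markers Cd79a and Ms4a1 had 0 counts in RelA-TA-KI cells and at most 1 in each WT library. Cd79b, a further B-cell marker, had 16 and 8 counts in RelA-TA-KI cells and 19 and 19 in WT cells. Mast cell and erythroid markers (Kit and Hbb-bs being the ones tested) were not called. Proliferation genes had a median of -0.17, with 18 of 21 below WT in both pairs, against 3616 of all 11621 genes tested. Pcna alone was called, in the higher direction (log2 fold change 0.41 ± 0.10, adjusted p = 0.0486, edgeR).

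The remaining genes with the largest changes had varied roles. On the lower side Gem, a small GTPase of the RGK family, had 3.73 and 10.6 CPM in RelA-TA-KI cells and 34.2 and 90.5 CPM in WT cells (log2 fold change -3.13 ± 0.15, adjusted p = 1.63e-06, edgeR). Mir155hg, the host transcript of the inflammatory microRNA miR-155, had 0.649 and 4.89 CPM in RelA-TA-KI cells and 7.84 and 40.5 CPM in WT cells (log2 fold change -3.14 ± 0.25). Arl5c and the CDC42 effector Cdc42ep2 were lower as well, with log2 fold changes of -3.64 and -2.83. On the higher side Sox7, a transcription factor of endothelial cells, had 13.8 and 4.89 CPM in RelA-TA-KI cells against 0.905 and 0.552 CPM in WT cells (log2 fold change 3.65 ± 0.48). Rgs2, a brake on G protein signalling, had 284 and 224 CPM in RelA-TA-KI cells and 79.5 and 59.2 CPM in WT cells, with a log2 fold change of 1.88 ± 0.11 (adjusted p = 5.51e-06, edgeR). Emp2, Rhov, Rps4l and the interferon-induced Mx2 were the others, with log2 fold changes of 1.90, 2.05, 1.77 and 1.68.

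The early genotype effect of LPS was then set against the same effect in other phases. Against early TNF (0.5 and 1 h, separate libraries) no gene was called as different (0 of 11621 by edgeR, 185 or 1.59% at an unadjusted p of 0.05, 0 by limma-voom and 1 by DESeq2). Of the 203 lower genes 201 also had a negative effect early after TNF, with a median of -1.18, and 97 of them were called there. Of the 207 higher genes 205 had a positive effect, with a median of 0.50, and 90 were called. In all 1.06% of genes tested were called lower and 0.938% higher early after TNF. Of the 11621 genes, 5891 had a negative and 5730 a positive effect early after TNF. Cxcl1 had an effect of -3.07 there, Gpr84 -3.60 and Tlr2 -2.12. Other lower genes had effects further from their early LPS values. Il12b had -0.67 early after TNF against -5.46 early after LPS, and Cxcl10 had -1.53 against -3.02. Cxcr2 had 0.42 against -2.03. None of these differences was called. A missing call does not show that the stimuli gave the same effect. With a simulated difference of 1 on the log2 scale this contrast recovered 56.7% of changed genes. The simulated data had no genotype effect in the other phases, unlike the real data, so recovery in the real data may be lower.

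Against late LPS (3 and 8 h), 149 genes (1.28%) had a different genotype effect, 108 (0.929%) more negative and 41 (0.353%) more positive early. Of the 203 genes lower early, 184 had a negative effect late after LPS and 113 were called in the test of that phase, in which 5.34% of genes tested were lower and 8.4% higher. Of the 207 higher genes 194 had a positive effect late and 146 were called. Over all genes tested, 5885 had a negative and 5736 a positive effect late after LPS. Late after TNF, where 2.41% of genes tested were lower and 3.28% higher, 180 of the 203 had a negative and 189 of the 207 a positive effect. There 6090 of all genes tested had a negative and 5531 a positive effect. The late effects below are fitted over 3 and 8 h together. Tnfsf9 had an effect of -2.97 early and 0.53 late (difference -3.50 ± 0.47, adjusted p = 0.0328, edgeR). Cxcl10 had -3.02 early and 0.10 late (difference -3.12 ± 0.31, adjusted p = 0.0159), Gem -3.13 and -0.08 (difference -3.05 ± 0.26, adjusted p = 0.000434), and Mir155hg -3.14 and -0.40 (difference -2.74 ± 0.31, adjusted p = 0.00304), all by edgeR. Irf1 had -3.94 early and 0.05 late, but the difference was not called (adjusted p = 0.0971, edgeR). Other genes kept their deficit: Cxcl1 had -3.55 early and -3.71 late, Il1b -3.18 and -2.90, Gpr84 -3.64 and -3.30, and Tlr2 -2.54 and -2.64, with no call of a difference.

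In the other direction Rhob, an endosomal small GTPase, was higher early (1256 and 938 CPM in RelA-TA-KI cells against 411 and 474 CPM in WT cells) and lower late (effects of 1.30 and -0.93, difference 2.23 ± 0.29, adjusted p = 0.0172, edgeR). Hmgcs1 had an effect of 0.72 early and 0.13 late, with a difference of 0.60 ± 0.11 (adjusted p = 0.0268, edgeR). Marco was lower in both phases and less so early (-2.76 against -4.68). Sephs2, Ksr1, Pwp1 and Trpm4 had little early effect (between -0.26 and 0.38) and a negative late one. The balance of this comparison depended on scaling, with 69 more negative and 62 more positive under library totals. It also depended on single pairs. The count was 10 without the LPS 0.5 h pair, 15 without the 1 h pair, 789 without the 3 h pair and 226 without the 8 h pair.

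Against the unstimulated pair 1 gene was called, 0.00861% of those tested. Marcksl1 had an effect of -2.34 early after LPS and -0.65 unstimulated (difference -1.69 ± 0.18, adjusted p = 0.0242, edgeR). No gene was called without the LPS 0.5 h pair, the LPS 1 h pair or the TNF 3 h pair. In this comparison 276 genes (2.38%) had an unadjusted p under 0.05, DESeq2 called 9 genes and limma-voom 0. In unstimulated cells 169 of the 203 lower genes were also below WT and 192 of the 207 higher genes above WT. Among all 11621 genes tested, 5633 were below and 5904 above. The unstimulated condition was a single pair of libraries, so its share in the early difference is a description.

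**Figure D4:**
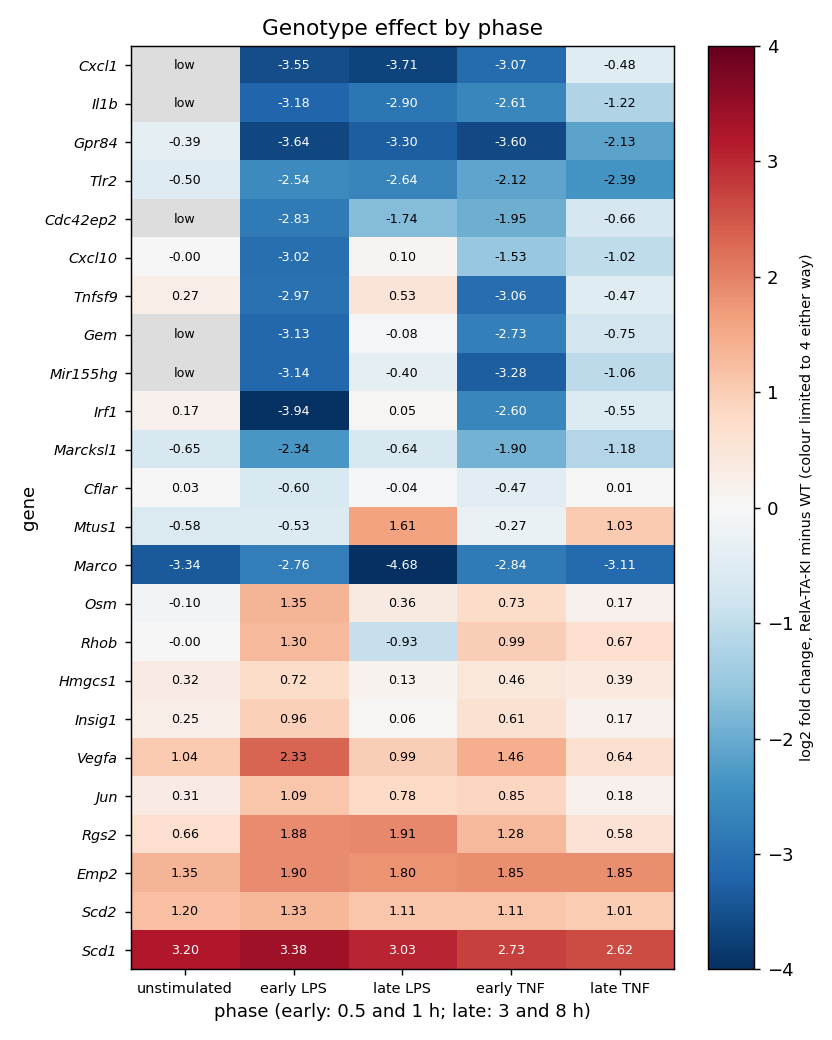
Genotype effect (log2 fold change, RelA-TA-KI minus WT, printed in each cell and shown as colour) for 24 genes in unstimulated cells and in early and late LPS and TNF; grey cells marked low had under 1.5 CPM in both unstimulated libraries. Cxcl10, Tnfsf9, Gem, Mir155hg and Irf1 have effects of -2.97 or less early after LPS and between -0.40 and 0.53 late, while Gpr84, Tlr2, Marco, Scd1 and Emp2 keep their sign in all 5 phases.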

How the data were processed

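Gene counts were the authors' deposited values, whole numbers per gene for 18 libraries. Per the submitters' processing notes, cutadapt 1.12, STAR, featureCounts 1.5.0 and DESeq2 were used with mm10; per the labels' protocols the poly(A) libraries came from a stranded kit. The strand setting and the annotation used are unstated in the labels and headers read. CPM (counts scaled to the TMM-adjusted library size) were computed from the deposited counts.

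All 18 libraries were fitted with edgeR 4.0.16 (R 4.3.3), with TMM scaling, 1 term per condition as the block that pairs genotypes, and a genotype effect per phase (unstimulated, early and late LPS, early and late TNF). filterByExpr (minimum count 10, total 15) left 11621 of 45706 genes. The quasi-likelihood test was used with Benjamini-Hochberg adjustment over all genes tested and a threshold of 0.05. DESeq2 1.42.0 and limma-voom (limma 3.58.1), other scalings and filters, and leaving out single pairs were alternatives. The LPS 0.5 h, LPS 1 h and TNF 3 h pairs were left out for every result. The early TNF and the late LPS pairs were left out only for the difference from that phase. The unstimulated and TNF 8 h pairs were never left out. Pairing came from the labelled conditions, since the labels carry no replicate numbers.

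Genes were named by rule: the 12 with the largest called change per direction at a mean log2 CPM of at least 1, up to 3 per list, 6 per direction for differences between phases, and a few set genes. A few genes are not reported here. Other list members given by name were chosen after their values were seen. The members and lists were chosen with earlier results of these data known. In data simulated from these counts, the early LPS test recovered 14.9%, 73.1% and 83.3% of log2 changes of 0.5, 1 and 2 among 11621 genes, and 14.3% of its calls were false, above the 5% that the threshold aims at. Promoter sequences came from RefSeq (GRCm38.p6).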

Additional observations from a re-analysis of the deposited data

Results flagged for a closer look

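The genotype effect (log2, RelA-TA-KI minus WT) differed between early and late LPS, by edgeR's test of the difference, for these genes among the 149 called. It was more negative early by -3.5 for Tnfsf9, -3.16 for Slc45a3, -3.12 for Cxcl10, -3.05 for Gem, -2.74 for Mir155hg and -2.14 for Mtus1. It was more positive early by 2.38 for Sephs2, 2.23 for Rhob, 2.22 for Ksr1, 1.92 for Marco, 1.81 for Pwp1 and 1.78 for Trpm4. Slc45a3 and Mtus1 had effects of -1.55 and -0.53 early and 1.61 and 1.61 late. Between early LPS and unstimulated cells the effect differed for Marcksl1, by -1.69, the only gene called in that comparison. The unstimulated condition is 1 library per genotype with no spread of its own, and the call was lost with limma-voom and without the LPS 0.5 h, LPS 1 h or TNF 3 h pair.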

How the results depend on the processing

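Depths of 4802301 to 5845970 counts per library and 1 library per genotype and time limit these results. The early LPS count of 410 genes was 1116 on the 4 early LPS libraries alone, 248 on LPS and unstimulated libraries, and 256 with 1 effect for all other pairs. Without the replicate block, that is without pairing by condition, it was 51. Leaving out a pair gave 50 to 417. It stayed within 1.5 times under the other scalings, filters and tests, with 250 of DESeq2's 295 calls and 360 of limma-voom's 406 shared. Of 60 called genes given by name, 13 kept their call without the replicate block, 51 under DESeq2 and 55 under limma-voom. The difference from early TNF gave 1 call with DESeq2 and 0 under the others. The difference from late LPS gave 318 calls with no filter, against 149, and 10 to 789 when a pair was left out. Library totals gave 69 more negative and 62 more positive calls (47.3% positive), against 108 and 41 (27.5%). The difference from unstimulated cells gave 2 calls with library totals, 4 with no filter, 9 with DESeq2, 0 with limma-voom and 0 when a pair was left out, against 1. Early induced genes numbered 149 at a log2 fold change of 2, against 293, and 93 to 295 when a pair was left out. No called value changed sign. Among genes not called, Rela ran from -0.28 to 0.06 and Hbb-bs from -1.46 to 0.10 over the alternatives, and the list medians of DUSP and Sprouty genes and of lymphocyte and erythroid markers crossed 0 in at least 1 alternative. The causes were not tested.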
